A study of Mus musculus with 8 samples.

Results

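To describe the active chromatin around the genes of the AP-1 transcription factor family in breast tumors, peaks of histone H3 acetylated at lysine 27 (H3K27ac) were collected around 10 genes in each of 4 mouse tumors. The genes were chosen by family, with earlier results of these data known. They were 4 of the Fos group (Fos, Fosb, Fosl1 and Fosl2), 3 of the Jun group (Jun, Junb and Jund), and Atf3, Batf and Batf3. They were 10 of 21938 protein-coding genes in GENCODE release M21, and all 10 had at least 1 peak in the gene body plus 50 kb either side, referred to as the window. The data were chromatin immunoprecipitation sequencing (ChIP-seq) peak lists on mm10 (GRCm38).

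All tumors came from Balb/c mice with the polyoma middle T oncogene driven by the mammary tumor virus promoter (PyMT) and a Rag1 knockout (Rag1KO), which removes their own T and B cells, and all had been given CD4+ T cells from wild-type mice at 4 weeks of age. The 2 control tumors had the genotype PyMT;Rag1KO. The 2 test tumors were K14-TSLPtg;PyMT;Rag1KO, so that thymic stromal lymphopoietin (TSLP), an epithelial cytokine that activates T helper 2 cells, was expressed from the keratin 14 promoter of basal epithelium. In the sample titles the controls are named tumor and the tests cyst. Replicate numbers 1 and 2 only name a tumor. Each sample was whole tumor tissue, in which fewer cells of a type and less acetylation per cell cannot be told apart.

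The lists held 69861 and 67850 intervals for controls 1 and 2, and 65763 and 59762 for tests 1 and 2, and the read depth behind them is unknown. Test 2 had the shortest list and the least covered sequence, 64.3 Mb against 67.8 to 73.1 Mb in the others, and values that rest on it are given with that in view. Of 10 luminal epithelial marker genes, 9 had a promoter peak (within 1 kb of the start) in all 4 tumors. Promoter peaks were found in 5 of 10 myeloid, 0 of 8 T cell, 0 of 9 fibroblast and 0 of 9 endothelial marker genes in all 4 tumors. For 2 against 2 tumors, an exact permutation test (two-sided) cannot give a p-value below 0.333, so groups are compared by whether both tumors of one lay above both of the other, beside the share of all genes or regions for which that held.

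AP-1 is a pair of basic leucine zipper (bZIP) proteins, usually one of the Fos group with one of the Jun group, bound to DNA at the AP-1 site TGAGTCA. Fos, Fosb, Jun, Junb and Atf3 are immediate early genes, which are transcribed within minutes of a growth factor or stress signal, and in mammary epithelium they answer to growth factor receptors and mitogen-activated protein kinases. H3K27ac marks active promoters and enhancers, the stretches of DNA from which such genes are switched on. The lists give only where a peak starts and ends, so a value here is a length of acetylated sequence and not its strength or an RNA level.

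The sequence before the starts of 4 of these genes is shown because the start lay under a peak in all 4 tumors and the sequence held a match to one of the motifs below. The starts of 7 genes lay under a peak in all 4 tumors, and the other 3, Fosb, Fosl2 and Jund, had 0 matches to any motif searched in their RefSeq promoters. The RefSeq promoter of Jund belongs to a start 1210 bp before the GENCODE one. Each run is the 250 bases before the start, 5′ to 3′ on the strand of the gene (GRCm38.p6). Capitals mark letters that match, on either strand, the TATA box TATAAA, the core TGACGT of a cAMP response element (CRE), or the AP-1-like site TGACATCA. The last pair of motifs was added after the sequences had been seen.
Fos, chr12:85473640-85473889, plus strand: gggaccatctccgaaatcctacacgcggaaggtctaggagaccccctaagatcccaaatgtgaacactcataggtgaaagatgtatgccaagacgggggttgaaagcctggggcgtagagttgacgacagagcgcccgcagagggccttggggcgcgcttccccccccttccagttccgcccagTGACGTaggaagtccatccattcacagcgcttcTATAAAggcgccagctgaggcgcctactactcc
Jun, chr4:95052223-95052472, minus strand: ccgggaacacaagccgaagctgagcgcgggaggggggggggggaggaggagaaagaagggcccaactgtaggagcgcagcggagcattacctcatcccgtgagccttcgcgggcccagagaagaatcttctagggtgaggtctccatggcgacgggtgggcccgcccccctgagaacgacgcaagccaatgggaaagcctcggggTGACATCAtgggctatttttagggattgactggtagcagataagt
Junb, chr8:84978719-84978968, minus strand: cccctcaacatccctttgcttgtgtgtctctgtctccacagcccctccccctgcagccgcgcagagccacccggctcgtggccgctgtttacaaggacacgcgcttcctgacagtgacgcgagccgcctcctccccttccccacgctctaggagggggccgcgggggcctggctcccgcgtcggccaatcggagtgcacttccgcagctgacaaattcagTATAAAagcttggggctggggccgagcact
Atf3, chr1:191183334-191183583, minus strand, at its RefSeq start: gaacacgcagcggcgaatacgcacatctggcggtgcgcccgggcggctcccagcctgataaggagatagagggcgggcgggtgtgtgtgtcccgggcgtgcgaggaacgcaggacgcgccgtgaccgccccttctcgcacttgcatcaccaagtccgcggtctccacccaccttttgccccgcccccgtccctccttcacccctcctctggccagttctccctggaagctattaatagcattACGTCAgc

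TATAAA began 33 bp before the start of Fos and 30 bp before the GENCODE start of Junb, which is at the RefSeq start of that gene (0 bp). TGACGT lay 66 bp before the Fos start and, as its reverse complement, 8 bp before the Atf3 start, and TGACATCA lay 45 bp before the Jun start. TGACGT was also found 98 bp before the RefSeq start of Batf, so that 33.3% of the 9 members in the RefSeq table held it. Over the RefSeq promoters of 27025 genes (GRCm38.p6), counted from 250 bp before to 50 bp after the start on both strands, 14.2% held TATAAA, 7.65% held TGACGT and 3.76% held TGACATCA. The exact AP-1 site was in 5.17% of those promoters, the full CRE TGACGTCA, which contains TGACGT, in 1.88% and the CArG box, the binding letters of serum response factor, in 1.57%. Of the 9 members in the RefSeq table (Fosl1 has no entry), 0 held any of these 3 in the same stretch. These are matches of letters and are not bound sites.

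The window level, the percent of a window inside peaks, was highest around Fos and lowest around Batf3. Across all genes with any coverage the median level was 4.64%, and 9 of the 10 genes lay above it, with a median of 16.9%. From the highest level to the lowest the order was Fos, Jund, Junb, Fosl2, Fosb, Fosl1, Atf3, Jun, Batf and Batf3. The ranges over the 4 tumors did not overlap between Junb and Fosl2, between Fosb and Fosl1, between Jun and Batf or between Batf and Batf3, so 4 of the 9 steps in this order exceeded the spread over tumors.

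**Figure D1:**
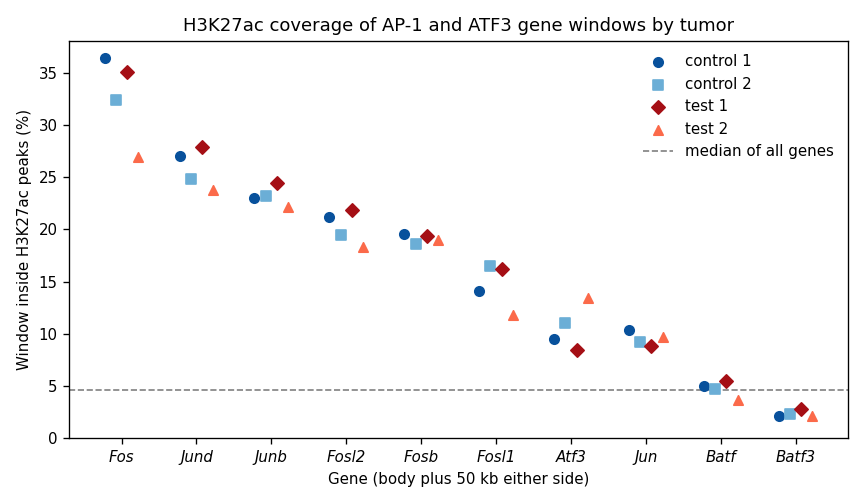
Percent of each gene window (gene body plus 50 kb either side) inside H3K27ac peaks, with 1 point for each of the 4 tumors and a dashed line at the median of all genes, 4.64%. Control and test points are interleaved for each of the 10 genes, and levels run from 36.4% at Fos in control 1 to 2.10% at Batf3 in control 1.

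Beginning with the Fos group, Fos (ENSMUSG00000021250, chr12:85473890-85477273) encodes c-Fos, the classical immediate early partner of Jun proteins. Peaks covered 36.4% of its window in control 1, 32.4% in control 2, then 35.0% in test 1 and 26.97% in test 2, a mean of 32.7% ± 4.16 (SD, n = 4). Test 1 lay between the control tumors and test 2 lay below the other 3, so the groups overlapped. The difference, the mean of the test tumors minus that of the control tumors, was -3.35 percentage points, the most negative of the 10 genes. A lower one was found for 2.76% of all genes. Differences were not scaled to the level, so a gene with high coverage can reach larger ones. Taken 1 test and 1 control tumor at a time, the difference was -9.39 to 2.68 percentage points. The Fos window held no other protein-coding start (0 genes), and its level exceeded that of 99.4% of all genes.

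Fosl2 (ENSMUSG00000029135, chr5:32135801-32157842) encodes Fra-2. Its window was covered over 21.2% (control 1), 19.5% (control 2), 21.9% (test 1) and 18.3% (test 2), with the highest and the lowest value both in the test group. Fosb (ENSMUSG00000003545, chr7:19302696-19310051) encodes FosB, another immediate early member. It varied least relative to its level, with 19.6% and 18.6% in control and 19.3% and 18.97% in test tumors, where the test values lay inside the control range. Fosl1 (ENSMUSG00000024912, chr19:5447547-5455946), which encodes Fra-1, had 14.1% and 16.5% in control and 16.2% and 11.8% in test tumors. Its window held the starts of 10 other protein-coding genes, and all but a small part of the gene itself lay outside peaks, with 0% of the body covered in control 1, test 1 and test 2 and 2.81% in control 2.

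In the Jun group, Jund (ENSMUSG00000071076, chr8:70698949-70700616) encodes JunD, which is made in resting as well as in growing cells. Its window was covered over 27.04% and 24.9% in control and 27.9% and 23.8% in test tumors. Junb (ENSMUSG00000052837, chr8:84974484-84978718) encodes JunB, a weaker activator than c-Jun that is also needed for T helper 2 cytokine expression. Its values were 23.0% and 23.2% in control and 24.5% and 22.2% in test tumors, so both control tumors lay between the test tumors. Jun (ENSMUSG00000052684, chr4:95049034-95052222) encodes c-Jun and had 10.4% and 9.25% in control and 8.82% and 9.73% in test tumors, again with overlap. Windows of Jund and Junb held the starts of 5 and 9 other coding genes, and the Jun window held 0.

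Atf3 (ENSMUSG00000026628, chr1:191170296-191218039) encodes a stress-induced bZIP protein that pairs with Jun proteins and often represses its targets. Its window was covered over 9.54% and 11.0% in control and 8.44% and 13.4% in test tumors. Here test 2, the tumor with the shortest list, had the highest value, which was so for only 1 of the 10 genes. Batf (ENSMUSG00000034266, chr12:85686669-85709087), which encodes a partner of Jun proteins in lymphocytes, had 4.97% and 4.74% in control and 5.50% and 3.68% in test tumors. Batf3 (ENSMUSG00000026630, chr1:191097847-191108945) is known for its role in cross-presenting dendritic cells, and its window had 2.10% and 2.36% in control and 2.76% and 2.16% in test tumors. Atf3 and Batf3 lie close together on chromosome 1 and their windows overlap, so they share peaks.

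None of the 10 genes had both control tumors above both test tumors (0 genes) and none had the opposite (0 genes). Across 18693 covered genes, 13.0% had both control tumors higher and 17.3% had both test tumors higher. Differences ran from -3.35 percentage points at Fos to 0.63 at Atf3, with a median of -0.16 and an SD of 0.991 over the 4 pairings of tumors, beside a median of 0.02 and quartiles of -0.51 and 0.46 over all genes. Because the groups overlapped at every gene, the range over the pairings had to include 0. Differences were not scaled to the level, whose median was 16.9% over these genes and 4.64% over all genes. Test 2 was the lowest tumor at 6 of the 10 genes, as it was for 43.3% of all genes, and test 1 was the highest at 5 of the 10, as for 38.7% of all genes. The part of sequencing depth in this order was not tested.

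**Figure D2:**
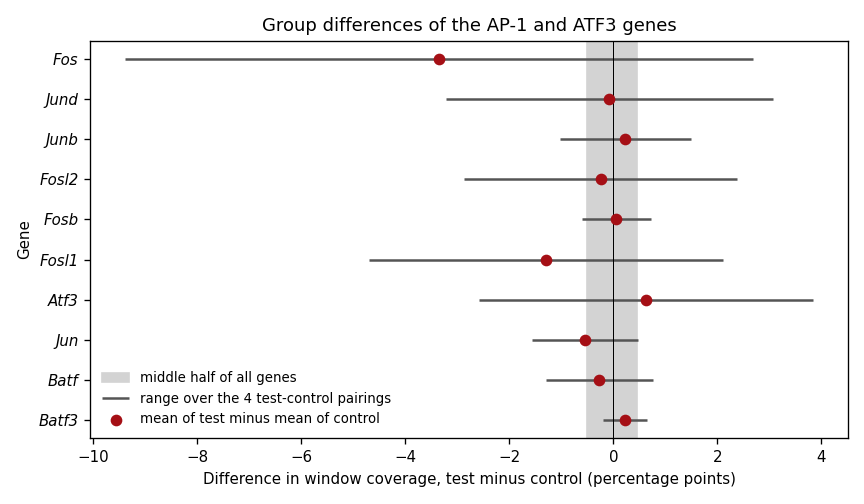
Difference in window coverage (mean of test tumors minus mean of control tumors, in percentage points) for each gene, with a line over the range of the 4 single pairings and a grey band between the quartiles of all genes (-0.51 and 0.46). Each line crosses 0, as it must where the groups overlap, and Fos has the widest, from -9.39 to 2.68.

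Whether a start of transcription had a promoter peak was largely the same in the 4 tumors. A promoter peak in all 4 tumors was found for 6 of the 10 genes, Fos, Fosb, Fosl2, Jun, Junb and Jund, and for 49.6% of all protein-coding genes. Batf had one in all tumors but test 2, Batf3 had one in control 2 and test 1, and Fosl1 and Atf3 had none at the GENCODE start.

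Junb had the widest peak over a start, 14171 and 13734 bp wide in control against 13502 and 14056 bp in test tumors. In each tumor it was wider than that of 99.6% to 99.8% of all genes with a peak over the start, whose median was 1660 to 1800 bp, and it covered the whole body of Junb and reached into the neighboring Prdx2. Fosl2 came next with 12062 and 8934 bp in control and 12141 and 7870 bp in test tumors, extending further into the gene than before it. At Fos the peak measured 5328 and 4340 bp in control and 5545 and 3605 bp in test tumors, and at Jun 4743 and 4889 bp in control and 4227 and 5061 bp in test tumors. The order of the tumors therefore differed from start to start, with test 2 shortest at Fos and Fosl2 but longest at Jun.

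Jund and Fosb were the exceptions, with a wider start peak in both control tumors. At Jund it measured 6683 and 4828 bp in control and 3471 and 3577 bp in test tumors. The region as a whole was not shorter in the test tumors, since acetylated bases across it came to 6683 and 5953 in control and 6306 and 6274 in test tumors. The peaks were broken at different places. In the test tumors a gap ran from 1.520 to 1.825 kb (test 1) and from 1.529 to 1.731 kb (test 2) from the start. It passed the end of the gene at 1.668 kb. In control 2 the first gap began at 2.843 kb, beyond the gene. The gene body was covered over 100% in both control tumors and over 91.1% and 91.7% in the test tumors. At Fosb the start peak was 2603 and 2580 bp in control tumors, 2560 bp in test 2 and 1397 bp in test 1, where it was split into 2 peaks. Acetylated bases across that region came to 2603 and 2580 in control and 2699 and 2560 in test tumors, so the groups overlapped there as well. A start peak wider in both control tumors was found for 9.15% of the 7126 genes with one in all 4 tumors, and 24.8% had one wider in both test tumors, against 2 and 0 of the 6 genes here.

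**Figure D3:**
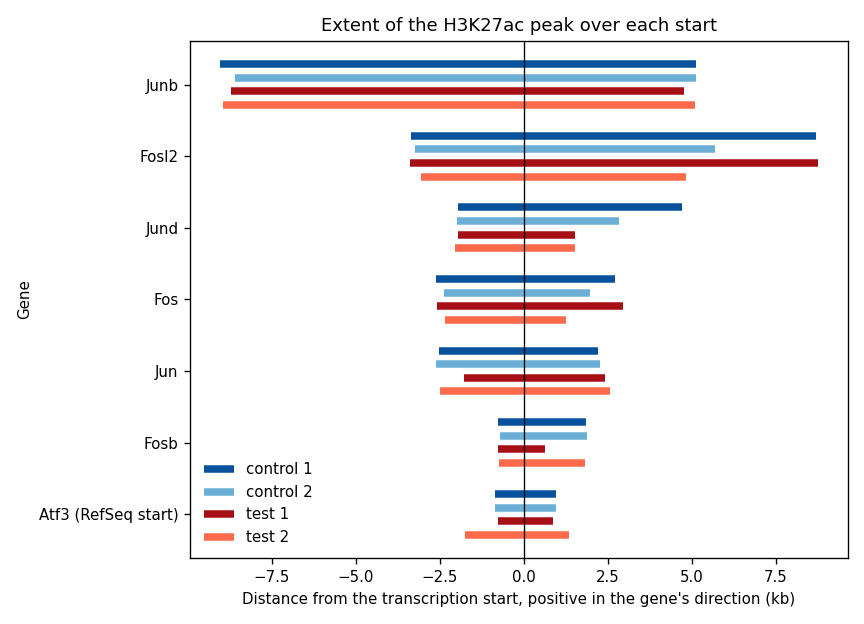
Extent of the H3K27ac peak over each start in kb, upstream to the left and into the gene to the right, with 1 bar per tumor. Junb spans 13502 to 14171 bp in every tumor. At Jund the bars of both test tumors (3471 and 3577 bp) end at a short gap, before those of both control tumors.

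For Atf3, the acetylated start was not the one at the 5′ end of the annotated gene. GENCODE places the 5′ end of the gene at its longest transcript, which had no peak within 1 kb in any tumor. The RefSeq start, 34.7 kb further into the gene at position 191183333, lay under a peak in all 4 tumors, 1832 bp in both control tumors, 1655 bp in test 1 and 3117 bp in test 2. With RefSeq starts the count of genes with a promoter peak in all 4 tumors was 7. Fosl1 stayed without one at any of its annotated transcripts, and the nearest peak was 9.25 and 8.16 kb away in control and 8.91 and 9.03 kb away in test tumors.

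Batf and Batf3 had narrow marks at best. The Batf promoter peaks were 238 and 199 bp wide in control tumors and 374 bp in test 1, and lay just beyond the start without covering the GENCODE position. Inside Batf, outside its exons, 3 regions were acetylated in all 4 tumors, 11.7, 14.1 and 18.8 kb from the start. The one at 14.1 kb had more acetylated bases in both control tumors, 1192 and 1154 against 1083 and 328 in test tumors. Batf3 promoter peaks were 191 bp in control 2 and 166 bp in test 1, and in control 1 and test 2 the nearest peak was over 22 kb away.

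**Figure D4:**
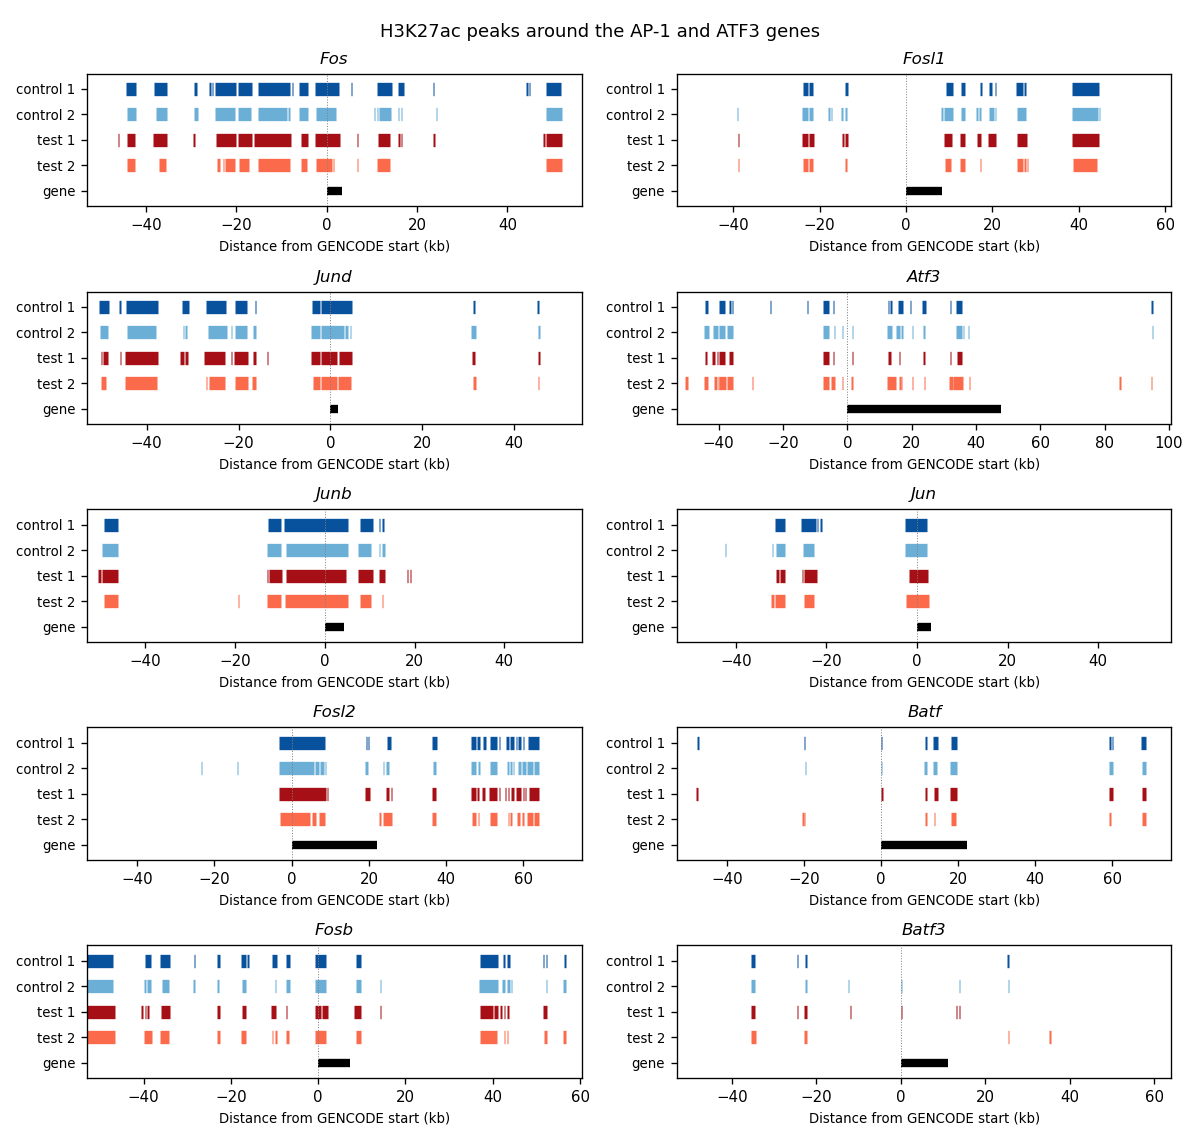
Peaks of each tumor (colored bars) around the 10 genes by distance from the GENCODE start in kb, in the direction of the gene, with the gene as a black bar. Of the 152 joined regions 77 are present in all 4 tumors. Peaks are dense upstream of Fos and nearly absent from the body of Fosl1 (2.81% covered in control 2 and 0% in the others). At Atf3 a peak over the RefSeq start, 34.7 kb into the gene from the GENCODE start, is seen among others inside and upstream of the gene.

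Peaks of the 4 tumors that touched were joined, which gave 152 regions in the 10 windows. Of these, 77 (50.7%) were present in all 4 tumors, against 38.1% of all 91238 regions of the genome. Shared regions had a median width of 1975 bp and those in 1 tumor only (45 regions) a median of 215 bp. Regions in 1 tumor numbered 15 and 13 in controls 1 and 2 against 10 and 7 in tests 1 and 2, the order of the list lengths. Regions that both tumors of a group had and both of the other lacked numbered 1 for control (control-only) and 1 for test (test-only), against 3.41% and 1.47% of all regions. By window, 1 of 10 genes had a control-only region and 1 of 10 a test-only region, where 22.3% and 12.2% of all genes did.

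The test-only region lay 6.86 kb downstream of the Fos start, beyond the end of the gene and in no annotated gene. It had 274 acetylated bases in test 1 and 161 in test 2, with 0 in both control tumors. The control-only region lay 28.5 kb upstream of Fosb, outside annotated genes and nearer to the start of Ercc1, a DNA repair gene, with 236 bases in control 1 and 453 in control 2. Both are shown as the members of their kind, together with the middle of an Atf3 region described next, on the plus strand of GRCm38.p6. Capitals mark an exact AP-1 site in the Atf3 region and a match to TTCNNNGAA, the letters bound by STAT5, in the Fos region. The middle 300 bp of 9.98% of all regions and of 9.11% of all test-only regions held a TTCNNNGAA match, on either strand.
Fos test-only region, chr12:85480604-85480898: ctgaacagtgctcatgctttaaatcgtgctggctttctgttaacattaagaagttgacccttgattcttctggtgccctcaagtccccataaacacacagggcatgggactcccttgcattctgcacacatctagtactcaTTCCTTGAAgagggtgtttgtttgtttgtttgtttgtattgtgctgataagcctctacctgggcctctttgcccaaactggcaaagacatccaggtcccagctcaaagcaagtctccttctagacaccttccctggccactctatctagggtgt
Fosb control-only region, middle 300 bp, chr7:19338427-19338726: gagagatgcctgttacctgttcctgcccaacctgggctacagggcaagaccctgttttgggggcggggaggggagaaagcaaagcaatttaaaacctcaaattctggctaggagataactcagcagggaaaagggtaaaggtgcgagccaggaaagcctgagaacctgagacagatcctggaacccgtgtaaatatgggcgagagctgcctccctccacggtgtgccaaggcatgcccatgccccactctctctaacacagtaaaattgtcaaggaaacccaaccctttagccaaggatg
Atf3 region, middle 300 bp, chr1:191201627-191201926: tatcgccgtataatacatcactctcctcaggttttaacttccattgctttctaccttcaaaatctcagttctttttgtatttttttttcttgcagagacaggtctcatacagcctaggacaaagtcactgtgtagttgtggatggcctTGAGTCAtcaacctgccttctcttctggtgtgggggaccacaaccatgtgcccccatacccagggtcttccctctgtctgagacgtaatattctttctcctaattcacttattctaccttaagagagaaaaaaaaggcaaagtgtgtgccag

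Within the 77 shared regions, acetylated bases separated the groups in 24, with 12 higher in both control tumors and 12 higher in both test tumors. Over all 34804 shared regions of the genome these shares were 13.3% and 19.1%. The Atf3 region shown above, 2016 bp wide in an intron 18.4 kb upstream of the RefSeq start, had 1618 and 1679 acetylated bases in control and 610 and 778 in test tumors. A region 49.3 kb upstream of Jund, inside Pgpep1, had 2226 and 1782 bases in control and 1275 and 1075 in test tumors. At Fos, the region 5.19 kb upstream of the start had 1972 and 1822 bases in control and 1505 and 1276 in test tumors, while the widest, 8114 bp at 12.01 kb upstream, had 7161 and 6980 in control and 8114 and 7245 in test tumors. Shared regions of the Fos window therefore included both orders, 3 with more bases in both control and 2 with more in both test tumors. Test 2, the tumor with the least coverage at Fos, had the fewest bases of the 4 tumors in 6 of the 9 shared regions of that window, and a pair of regions found in the other 3 tumors was absent from it. The shared region 36.8 kb upstream had 2906 and 2595 bases in control, 3008 in test 1 and 1568 in test 2, and the one 22.3 kb upstream had 4648, 4404, 4546 and 3078. Of the absent pair, the one 29.0 kb upstream of the start had 872, 955 and 556 bases in control 1, control 2 and test 1, and the one 16.4 kb downstream had 1226, 382 and 685 bases.

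Genes around AP-1 in the signaling pathway were compared in the same way, in lists also drawn up with earlier results of these data known. Other immediate early genes, which respond to the same signals, had both control tumors higher for 10 of 24 covered genes and both test tumors higher for 1, with a median difference of -1.57 percentage points. The same shares of all genes were 13.0% and 17.3%, with a median of 0.02. These differences were not scaled to the level. The mean level of this list was 15.4% to 18.5% in the 4 tumors, beside a median of 4.64% over all genes. Dusp1, a phosphatase that shuts off mitogen-activated protein kinases, had 22.2% and 23.0% of its window covered in control and 18.6% and 10.3% in test tumors. Mcl1, which protects cells from apoptosis, had 44.4% and 38.1% in control and 38.1% and 32.2% in test tumors, with control 2 and test 1 almost equal. Nr4a1, an orphan nuclear receptor, had 17.1% and 18.2% in control and 14.1% and 12.4% in test tumors. Leaving out 1 tumor changed these counts, which then compare a single tumor with a pair. The genes higher in control and in test tumors were 10 and 4 without control 1, 14 and 1 without control 2, 16 and 6 without test 1 and 14 and 5 without test 2. The median was -0.66 percentage points without test 2 and -1.94 without test 1, beside 0.23 and -0.20 over all genes. For all genes the shares were 26.4% and 29.4% without control 1 and 26.4% and 30.1% without control 2. They were 46.6% and 30.0% without test 1 and 20.5% and 48.5% without test 2.

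Among other bZIP genes, 11 of 28 had both control tumors higher and 2 had both test tumors higher, with a median of -0.63 percentage points. All genes had 13.0% and 17.3%, with a median of 0.02. Cebpb, a bZIP factor of mammary epithelium and myeloid cells, had 47.1% and 46.4% of its window covered in control and 44.4% and 40.6% in test tumors. Mafg, a small Maf protein that pairs with other bZIP factors, went the other way with 12.1% and 14.7% in control and 15.2% and 17.9% in test tumors. Its relative Maff had 9.13% and 10.9% in control and 7.46% and 7.06% in test tumors. The counts were 12 and 2 without control 1, 14 and 4 without control 2, 23 and 4 without test 1 and 12 and 11 without test 2. For all genes the shares were 26.4% and 29.4%, 26.4% and 30.1%, 46.6% and 30.0%, and 20.5% and 48.5%, in the same order. The median of these genes was -0.003 percentage points without test 2 and -1.53 without test 1. That of all genes was 0.23 and -0.20 in these settings.

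Of the kinases and factors upstream of AP-1, 3 of 19 genes were higher in both control tumors and 4 in both test tumors, with a median of -0.01 percentage points (0.31 without test 2 and -0.44 without test 1). The counts were 7 and 7 without control 1, 6 and 6 without control 2, 10 and 4 without test 1 and 3 and 9 without test 2. All genes had 26.4% and 29.4%, 26.4% and 30.1%, 46.6% and 30.0%, and 20.5% and 48.5%, in the same order. With all 4 tumors they had 13.0% and 17.3%. The median of all genes was 0.23 without test 2 and -0.20 without test 1. Elk3, a partner of serum response factor, had 16.9% and 15.5% in control and 13.2% and 11.7% in test tumors, whereas Mrtfa, another such partner, had 5.85% and 6.97% in control and 8.06% and 9.78% in test tumors. The kinase gene Map2k1 had 9.11% and 9.47% in control and 9.08% and 6.76% in test tumors. Of textbook AP-1 targets, 4 of 17 covered genes were higher in both control tumors and 1 in both test tumors, with a median of -0.62 (-0.29 without test 2 and -0.70 without test 1). Without 1 tumor these counts were 6 to 10 and 2 to 4, both highest without test 1, where all genes had 46.6% and 30.0%. The cytokine gene Lif had 23.1% and 22.1% in control and 21.01% and 16.5% in test tumors, and Hbegf, an epidermal growth factor receptor ligand, 6.45% and 7.51% in control and 4.46% and 5.81% in test tumors. Sphk1, which makes sphingosine 1-phosphate, had 9.14% and 8.76% in control and 10.8% and 13.2% in test tumors. These lists were also counted with wide peaks, equal numbers of peaks, equal covered length and joined peaks. Control was then higher for 8 to 10 immediate early, 8 to 11 bZIP, 3 to 5 upstream and 4 or 5 target genes. Test was higher for 0 or 1, 2 or 3, 3 to 5 and 1 of them. All genes had 9.90% to 13.9% and 15.5% to 19.7%. The upstream median ran from -0.26 to 0.37.

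**Figure D5:**
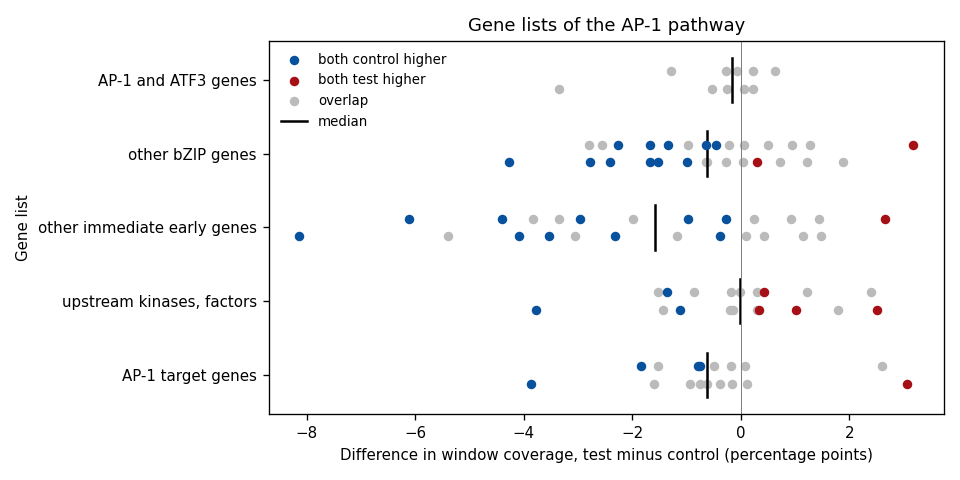
Difference in window coverage (test minus control, percentage points) for each covered gene of 5 lists, blue where both control tumors were higher, red where both test tumors were higher and grey where the groups overlapped, with a black line at the median. All 10 AP-1 and ATF3 genes are grey, while 10 of 24 other immediate early genes and 11 of 28 other bZIP genes are blue. Over all genes, both control tumors were higher for 13.0%.

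Marker genes of other cell types were counted beside these lists. Both control tumors were higher for 4 of 10 myeloid, 5 of 9 endothelial, 3 of 6 myoepithelial and 3 of 8 fibroblast marker genes covered, and both test tumors were higher for 0, 0, 0 and 1. Summed over the myeloid list the levels were 98.0 and 89.9 percentage points in control and 94.4 and 75.1 in test tumors, and over the endothelial list 48.6 and 49.7 in control and 44.6 and 38.9 in test tumors. Luminal markers had 0 of 10 genes higher in both control and 2 higher in both test tumors, and T cell markers had 3 of 8 in each direction. Both control tumors were higher for 2 of 5 neutrophil and 1 of 6 adipocyte markers, and both test tumors for 0 and 1. Of markers of cells not expected in the tissue, 2 of 4 covered hepatocyte genes and 0 of 6 neuron genes were higher in both control tumors, and 0 of either in both test tumors. All these counts stand beside 13.0% and 17.3% of all genes. The part of cell make-up in the values of the gene lists was not tested.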

How the data were processed

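The authors aligned H3K27ac ChIP-seq reads to mm10 with BWA. MACS2 peaks were called tumor by tumor, each against a matched input that was not analysed here. The deposited lists hold other values than counts: a chromosome, a start, an end and joined peak names, without score or signal. Neighboring intervals were at least 201 bp apart. What the authors' cleaning step removed is not given in the sources used here.

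Genes came from GENCODE release M21, and the reference GRCm38.p6 is the same assembly as mm10 (0 intervals passed a chromosome end). Coverage was the percent of a gene body plus 50 kb either side inside peaks. Peaks that overlapped or touched across tumors were joined into regions, present in a tumor with at least 1 bp of peak. Promoters were 1 kb either side of the start. The percentile of a gene was taken over 18693 covered genes. Named genes were all 10 members, and of each pathway list the 3 with the largest absolute difference among those with groups that did not overlap. Regions named among the shared ones were chosen after their values were seen. Members, lists and rules were chosen with earlier results of these data known. Mmp1a of the target list matched no gene. Interval arithmetic was tested on simulated data (Python 3.11.15, numpy 2.4.6, pandas 2.3.3). Alternatives changed the window, the peaks used, the promoter and the tumors.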

Additional observations from a re-analysis of the deposited data

How the results depend on the processing

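The count of genes with a promoter peak in all 4 tumors was 6 or 7 in all settings tried, including RefSeq starts and all coding transcript starts, both added after seeing the data. For coverage, 0 genes had both control tumors higher under other windows, wide peaks, equal numbers of peaks, equal covered length, joined peaks or without other promoters. It was 1 (Jund) with peaks nearest to the gene and 2 (Fos and Fosl1) by number of peaks, where the median difference was -0.5 peaks. Both test tumors were higher for 1 gene in the 20 kb window (Jund) and 1 in the 100 kb window (Fosb). Leaving out a tumor compares a single tumor with a pair and gave 1 to 6 genes with control higher and 1 to 5 with test higher. It was 6 and 1 without test 1 (all genes 46.6% and 30.0%), 2 and 5 without test 2 (20.5% and 48.5%), 1 and 1 without control 1 (26.4% and 29.4%) and 3 and 1 without control 2 (26.4% and 30.1%). The median difference then ran from -1.06 percentage points without test 1 to 0.66 without test 2. That of all genes was -0.20 and 0.23 in these settings. Over the other coverage settings the median of the members took both signs, so it has no stable direction.

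Control-only regions numbered 0 at 10 kb, at 20 kb, at equal covered length and with peaks nearest to the gene, 2 with peaks joined, 3 at 100 kb and 3 where at least 50% of the bases had to be covered. Test-only regions numbered 0 at equal covered length, 2 at 100 kb, 2 at equal numbers of peaks, 2 with peaks nearest to the gene and 3 with the 50% rule. Without 1 tumor they numbered 4 to 16 and 2 to 14. Shares over all regions were not counted under these settings, so these numbers cannot be set against the genome. No paired analysis was possible because the labels carry no replicate numbers, and those used here follow accession order and only name a tumor. Depth is unknown, so a missing narrow peak may be one that was not detectable.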

Other observations

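Across the 10 windows, taken as 9 joined stretches of 1093 kb, peaks covered 184 and 178 kb in control and 186 and 167 kb in test tumors. The overlap of the covered bases between a pair of tumors, as the Jaccard index (shared over joined bases), was 0.774 between the control tumors and 0.712 between the test tumors, and 0.736 to 0.785 between groups. The highest value belonged to control 1 with test 1, a pair from different groups. Over the genome the same index was 0.661 within control, 0.606 within test and 0.589 to 0.691 between groups, lower for each pair than in the AP-1 windows.

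The AP-1 site itself was found in the middle 300 bp of 9.09% of the 77 shared regions of these windows and of 7.63% of all shared regions. The full CRE was in 2.60% and 0.72% of them. TGACATCA, which was searched after the Jun promoter had been seen, was in 7.79% and 1.53%. The STAT6-type motif (TTC and GAA with 4 bases between) was in 14.3% and 8.04%, the STAT5-type letters in 10.4% and 9.52%, TGACGT in 5.195% and 4.84%, and the CArG box in 2.60% and 1.43%. TATAAA went the other way, with 5.195% and 12.4%. The regions shared by all tumors are few here and include promoters of the genes named above, so these shares are descriptions.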
